A study of Sus scrofa with 12 samples.

Results

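The genes described here are those of MHC class II antigen presentation, which in the pig are called swine leukocyte antigen (SLA) genes. The list has 8 genes, SLA-DRA, SLA-DRB1, SLA-DQA1, SLA-DQB1, SLA-DMA, SLA-DMB, CD74 and CIITA. Members were found through the supplied table that pairs pig Ensembl IDs with symbols. It gave an ID for 6 of the 8 among the 24358 genes, with SLA-DRA entered under its human symbol HLA-DRA. The IDs are ENSSSCG00000001453 (SLA-DRA), ENSSSCG00000001457 (SLA-DQB1), ENSSSCG00000001470 (SLA-DMA), ENSSSCG00000001469 (SLA-DMB), ENSSSCG00000033262 (CD74) and ENSSSCG00000007901 (CIITA). SLA-DRB1 and SLA-DQA1 were not matched to an ID and were not analysed here.

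Class II molecules are pairs of an alpha and a beta chain that show peptides from engulfed protein to CD4 T cells. The invariant chain, CD74, escorts new pairs and fills their groove until a fragment of it is exchanged for peptide with the help of the DM pair. CIITA is the coactivator that switches these genes on. It is constitutive in dendritic cells, B cells and some macrophages, and interferon gamma induces it in many other cells, adipocytes of the mouse and human among them.

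RNA came from subcutaneous fat of the middle of the back. The pigs were Guangdong small-eared (GS), an indigenous breed of southern China, or Yorkshire (YK), a commercial breed, and 80 d or 9 d old, with genotype given as WT. The groups were GS_80d, YK_80d, GS_9d and YK_9d, with 3 libraries each and 12 in all. The study compared the breeds at different ages.

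Totals ran from 45435480 to 60993349 units per library, and 1 fragment adds about 3.72 of these units. Levels are given in CPM, the count scaled to the size of its library with edgeR's TMM factors. The 6 members had between 229 fragments (SLA-DMB in YK_9d replicate 3) and 33976 fragments (CD74 in YK_80d replicate 3), and all passed the filter on low counts. The labels give adipocyte as cell type, and the 8 adipocyte markers summed to 11043 to 28374 CPM, but markers of other cells were also present. Genes of T and NK cells summed to 477 and 712 CPM in YK_80d replicates 2 and 3, against 29.9 to 147 CPM in the other 10 libraries. Skeletal muscle genes summed to 12989 CPM in YK_80d replicate 3, 10891 CPM in GS_9d replicate 3 and 2198 CPM in YK_9d replicate 1, against at most 86.2 CPM in the others. In bulk tissue, fewer cells of a type and less RNA per cell cannot be told apart. No source used here says whether reads were counted by strand. In the RefSeq annotation of assembly Sscrofa11.1, SLA-DMA and SLA-DMB overlap BRD2, and CIITA overlaps DEXI. SLA-DQB1 stands beside the pseudogene SLA-DQB2. Reads of these genes may therefore not have been told apart in full. The SLA genes are polymorphic, and allele differences between the breeds may change how their reads map, which was not tested.

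Among the chains that hold peptide, SLA-DRA, the alpha chain of DR, stood at 340, 401 and 396 CPM in GS_80d replicates 1, 2 and 3. It stood at 278, 737 and 871 CPM in YK_80d, at 558, 480 and 210 CPM in GS_9d, and at 191, 139 and 165 CPM in YK_9d. The YK_80d libraries were split, replicate 1 lying below all 3 GS_80d libraries and replicates 2 and 3 above them. By group mean the order was YK_80d, GS_9d, GS_80d and YK_9d, and the first 3 overlapped one another while YK_9d lay below them all.

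SLA-DQB1, the beta chain of DQ, stood at 96.5, 83.1 and 154 CPM in GS_80d, against 164, 456 and 587 CPM in YK_80d. At the younger age it stood at 213, 169 and 139 CPM in GS_9d, against 115, 96.5 and 75.9 CPM in YK_9d. GS lay wholly below YK at 80 d and wholly above it at 9 d. The order by mean was YK_80d, GS_9d, GS_80d and YK_9d, and each pair of neighbours in that order overlapped. SLA-DQB1 had the widest span of the members, with a highest library 7.74 times the lowest.

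SLA-DMA and SLA-DMB form the DM pair that exchanges the CD74 fragment for peptide. SLA-DMB stood at 39.0, 38.7 and 40.0 CPM in GS_80d and at 41.1, 78.6 and 110 CPM in YK_80d, then at 56.9, 57.5 and 22.5 CPM in GS_9d and at 28.0, 23.5 and 17.2 CPM in YK_9d. Its GS_80d values were almost equal, and YK_80d replicate 1 lay just above them while replicates 2 and 3 were far higher. SLA-DMA stood at 46.7, 40.3 and 39.4 CPM in GS_80d and 38.0, 81.4 and 102 CPM in YK_80d. In the younger pigs it stood at 50.5, 56.9 and 29.6 CPM in GS_9d and 35.7, 39.3 and 34.6 CPM in YK_9d. Both genes were highest in YK_80d replicates 2 and 3, and GS_9d replicate 3 lay with or below the YK_9d libraries.

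CD74 stood at 821, 902 and 942 CPM in GS_80d, against 1566, 1918 and 2616 CPM in YK_80d. It stood at 1267, 1621 and 1068 CPM in GS_9d and 1120, 957 and 1220 CPM in YK_9d. All YK_80d libraries, replicate 1 included, lay above all GS_80d libraries, and the groups at 9 d overlapped. CIITA stood at 42.0, 43.8 and 34.8 CPM in GS_80d and 46.6, 46.1 and 49.1 CPM in YK_80d, and at 27.7, 40.8 and 22.5 CPM in GS_9d and 30.2, 29.0 and 25.7 CPM in YK_9d. CIITA spanned the least of the 6 members, with a highest library 2.19 times the lowest, and its 3 YK_80d libraries lay close together. Across the 12 libraries the members varied together to different degrees. The Pearson correlation of each member's log2 CPM with the mean of the other 5 was 0.963 for SLA-DMB, 0.926 for SLA-DMA, 0.884 for SLA-DRA and 0.878 for SLA-DQB1. It was 0.767 for CD74 and 0.644 for CIITA. These are descriptions over libraries that share 4 groups.

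**Figure D1:**
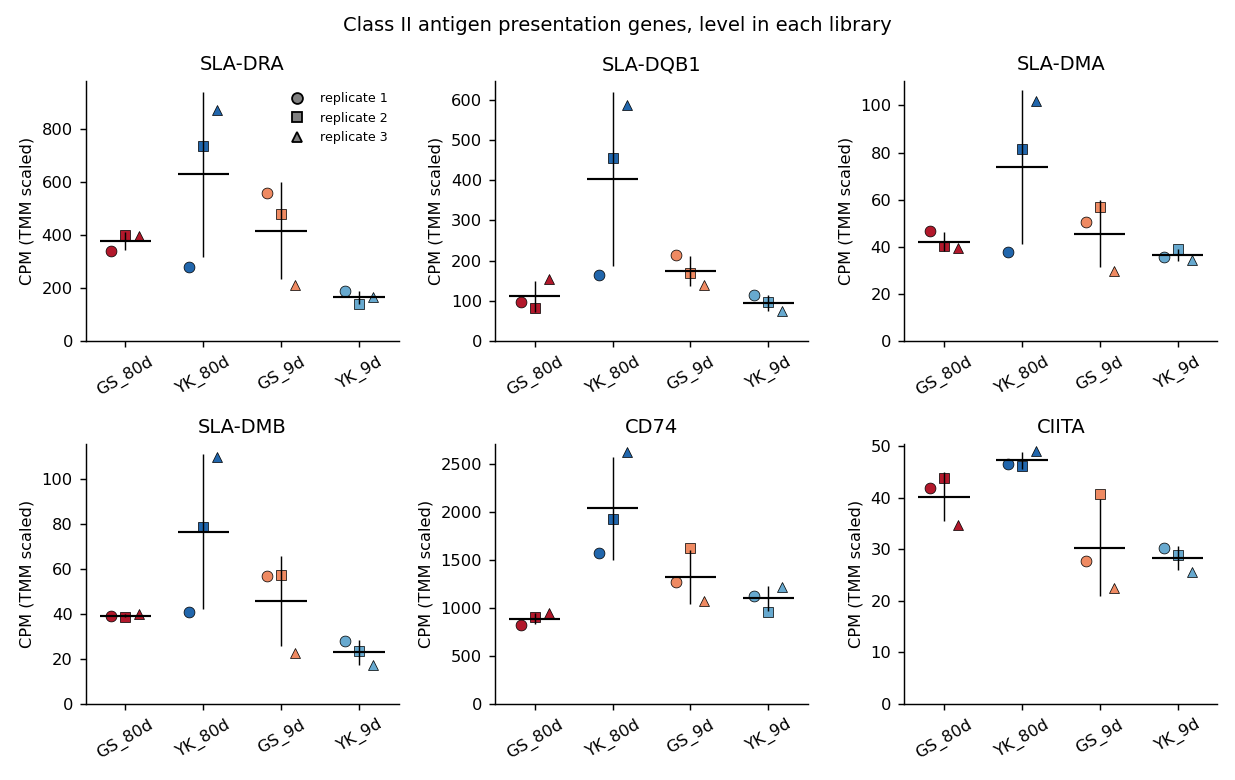
Level of each of the 6 class II genes in CPM with TMM scaling (linear axes from 0), by library, with the group mean (horizontal line) and SD (vertical line) over 3 libraries and a marker shape for each replicate number. YK_80d replicates 2 and 3 are the highest libraries for every gene but CIITA, where all 3 YK_80d libraries are close together.

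At 80 d, CD74 and SLA-DQB1 were lower in GS than in YK. CD74 averaged 888 ± 61.4 CPM in GS_80d and 2033 ± 534 CPM in YK_80d (SD, n = 3 each), a log2 fold change of -1.20 ± 0.25 (SE; edgeR adjusted p = 0.0182). SLA-DQB1 averaged 111 ± 37.4 CPM in GS_80d and 403 ± 217 CPM in YK_80d (log2 -1.86 ± 0.41, edgeR adjusted p = 0.0230). These 2 of the 6 members passed, both lower, where 2.95% of all 15425 genes tested passed as lower. The median of the 6 was -0.89, against -0.02 over all genes tested, of which 3.17% passed as higher. The other 4 members also had negative values, SLA-DMB of -0.96 ± 0.38, SLA-DMA of -0.81 ± 0.32, SLA-DRA of -0.73 ± 0.41 and CIITA of -0.23 ± 0.22 (edgeR adjusted p = 0.149, 0.151, 0.299 and 0.559). For 4 members, SLA-DQB1, SLA-DMB, CD74 and CIITA, every GS_80d library lay below every YK_80d library, and 14.4% of all genes did so.

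The CD74 call was kept when YK_80d replicate 1 or 2 was left out, and it was lost when YK_80d replicate 3 or a GS_80d library was left out (adjusted p up to 0.0899). The call for SLA-DQB1 was lost without GS_80d replicate 1, GS_80d replicate 2 or YK_80d replicate 3 (up to 0.106), with log2 values of -2.24 to -1.50 over the 6 such fits. A fit without both libraries rich in T cell transcripts, YK_80d replicates 2 and 3, keeps 1 YK_80d library, too few to judge a call. The log2 fold changes without those 2 were -0.82 for CD74, -0.56 for SLA-DQB1, 0.45 for SLA-DRA and 0.15 for SLA-DMA. Those 2 libraries also held more macrophage transcripts than the other 80 d libraries and were the highest for SLA-DRA, SLA-DQB1, SLA-DMA, SLA-DMB and CD74, so the part of T cell or macrophage transcripts in these differences was not tested.

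At 9 d the sign was the other way. All 6 members had positive values, with a median of 0.59 against 0.01 over all genes, and none passed in edgeR, where 1.02% of all genes passed. At an unadjusted p under 0.05 there were 2 members, SLA-DRA and SLA-DMB, where 14.4% of all genes were. DESeq2 called 1 member, SLA-DRA. It called more of all genes than edgeR in every comparison, with its counts over all genes given in the closing section. SLA-DRA averaged 416 ± 182 CPM in GS_9d and 165 ± 25.7 CPM in YK_9d (log2 1.33 ± 0.41, edgeR adjusted p = 0.147). SLA-DMB differed by 0.99 ± 0.38 (edgeR adjusted p = 0.252), SLA-DQB1 by 0.86 ± 0.40 (0.352), SLA-DMA by 0.32 ± 0.32 (0.735), CD74 by 0.26 ± 0.25 (0.710) and CIITA by 0.10 ± 0.22 (0.901). The groups did not overlap for SLA-DRA and SLA-DQB1, both higher in GS, as for 8.93% of all genes. The T and NK cell list summed to 87.1, 147 and 50.7 CPM in GS_9d, against 41.7, 40.9 and 29.9 CPM in YK_9d, with replicate 3 the lowest of GS_9d, as it was for all 6 members. That library also held skeletal muscle transcripts, and the part of either in the result was not tested. KRT71, a keratin of the hair follicle, stood at 1.12, 7.61 and 13.7 CPM in YK_9d and at 0 in the other 9 libraries. KRT25, another such keratin, stood at 2.28, 9.46 and 28.0 CPM in YK_9d and at most 0.186 CPM elsewhere.

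Between 9 d and 80 d, SLA-DQB1 and SLA-DRA rose in YK. SLA-DQB1 rose by a log2 fold change of 2.07 ± 0.41 (edgeR adjusted p = 0.0355), at 403 ± 217 CPM in YK_80d against 95.8 ± 19.6 CPM in YK_9d (SD, n = 3 each). SLA-DRA rose by 1.93 ± 0.42 (edgeR adjusted p = 0.0483), at 629 ± 311 CPM in YK_80d against 165 ± 25.7 CPM in YK_9d. These were 2 of 6 members, where 0.810% of all genes passed as higher and 0.395% as lower. SLA-DMB differed by 1.74 ± 0.39, SLA-DMA by 1.02 ± 0.33, CD74 by 0.89 ± 0.25 and CIITA by 0.74 ± 0.22 (edgeR adjusted p = 0.0546, 0.168, 0.110 and 0.132). DESeq2 called 5 of the 6, and it also called more of all genes than edgeR did (count in the closing section). For 5 members, all but SLA-DMA, every YK_80d library lay above every YK_9d library, as for 7.77% of all genes. Both edgeR calls were kept without YK_80d replicate 1 and lost without any other of the 6 libraries (adjusted p up to 0.142 for SLA-DRA and 0.118 for SLA-DQB1). They were also lost with the replicate number as a block (0.101 and 0.0859), with log2 values of 1.91 and 2.01. Without YK_80d replicates 2 and 3, which leaves 1 YK_80d library, SLA-DRA differed by 0.75 and SLA-DQB1 by 0.78. YK_9d replicates 2 and 3 were the highest for KRT71, and a fit without them keeps 1 YK_9d library, too few to judge a call. No member passed here or between the breeds at 80 d when the 3 libraries with muscle transcripts were left out. This comparison shares the YK_80d libraries with the breed difference at 80 d, so the 2 are not independent.

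In GS no member passed between the ages in edgeR, where 2.65% of all genes passed, and DESeq2 called none either. At an unadjusted p under 0.05 there was 1, CD74, where 20% of all genes were, at 888 ± 61.4 CPM in GS_80d and 1319 ± 280 CPM in GS_9d (log2 -0.57 ± 0.25, edgeR adjusted p = 0.223). It was the only member whose GS_80d libraries all lay below the GS_9d libraries, as 16.5% of all genes did. SLA-DQB1 differed by -0.64 ± 0.40 (edgeR adjusted p = 0.393) and CIITA, the only positive value, by 0.41 ± 0.22 (0.321). SLA-DMB, SLA-DRA and SLA-DMA differed by -0.22, -0.14 and -0.12, with SEs of 0.38, 0.40 and 0.32. Their adjusted p ran from 0.798 to 0.890.

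The breed by age interaction, the breed difference at 80 d minus that at 9 d, was negative for all 6 members. It was -2.71 ± 0.57 for SLA-DQB1 (edgeR adjusted p = 0.129), -2.06 ± 0.58 for SLA-DRA (0.234), -1.96 ± 0.54 for SLA-DMB (0.230) and -1.46 ± 0.35 for CD74 (0.180). It was -1.14 ± 0.46 for SLA-DMA (0.394) and -0.34 ± 0.31 for CIITA (0.745). None of the 6 passed in edgeR, where 10 of all genes did (0.0648%), and 5 had an unadjusted p under 0.05 (11% of all genes). DESeq2 called 4 of the 6, and it also called more of all genes than edgeR did (count in the closing section). Without YK_80d replicate 1 edgeR called SLA-DQB1 (-3.09, adjusted p = 0.00878) and SLA-DRA (-2.42, 0.0479). Averaged over both ages, no member differed between the breeds in edgeR, where 9.30% of all genes passed. These averages ran from -0.50 ± 0.28 for SLA-DQB1 to 0.30 ± 0.29 for SLA-DRA, 1 member (CD74, -0.47 ± 0.17, adjusted p = 0.113) had an unadjusted p under 0.05 (25.7% of all genes), and DESeq2 called that 1.

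**Figure D2:**
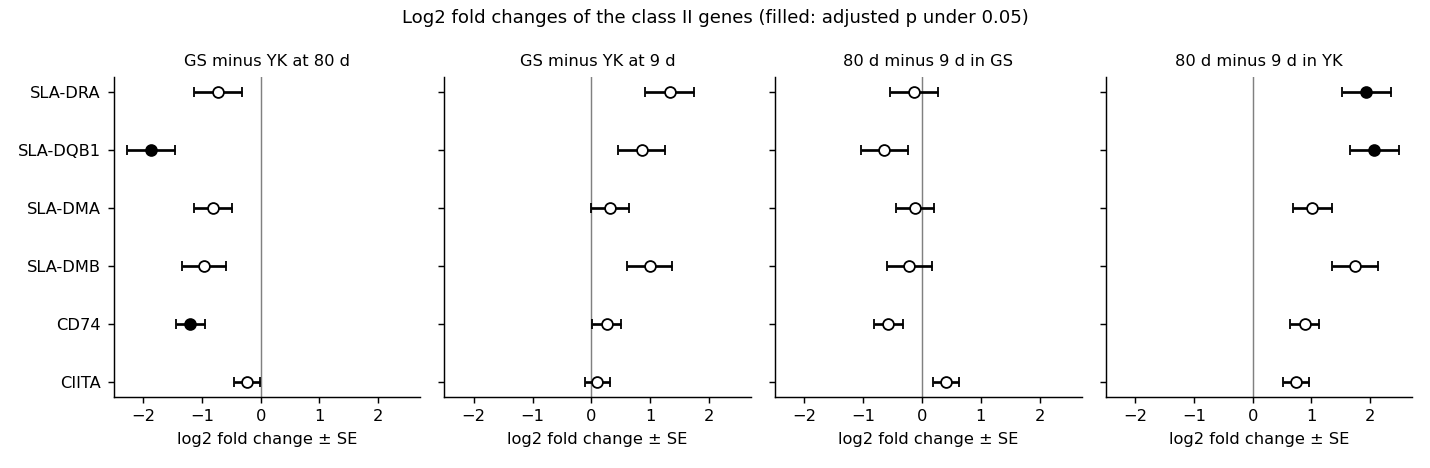
Log2 fold change of each class II gene (points) with its SE (bars) for GS minus YK at 80 d, GS minus YK at 9 d, 80 d minus 9 d in GS and 80 d minus 9 d in YK, filled where the edgeR adjusted p is under 0.05. All 6 values are negative for breed at 80 d and positive for breed at 9 d and for age in YK.

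In the ratio of 2 genes within a library, the scaling between libraries cancels. The ratio was compared between the breeds for CD74 over SLA-DRA and for the 2 DM genes. The expected counts of CD74 were 2.41, 2.25 and 2.38 times those of SLA-DRA in GS_80d, against 5.63, 2.6 and 3.0 times in YK_80d. They were 2.27, 3.38 and 5.07 times in GS_9d, against 5.87, 6.87 and 7.40 times in YK_9d. GS lay below YK at each age with no overlap, so the counts of CD74 stood lower relative to those of SLA-DRA in GS. At 80 d the log2 breed differences were -1.20 for CD74 and -0.73 for SLA-DRA, and at 9 d 0.26 and 1.33. At 9 d CD74 itself was thus not lower in GS. Ratios were 5.07 or more in YK_9d, GS_9d replicate 3 and YK_80d replicate 1, the libraries lowest for SLA-DRA, and 3.38 or less elsewhere. The ratio is therefore not separate from the level of SLA-DRA. A breed difference in how SLA-DRA reads map, or in the mix of cells, would not cancel in the ratio and was not tested. The mean difference in log2 ratio was -0.78 over both ages (exact permutation test within age, two-sided p = 0.005, the smallest the 400 arrangements can give, 0.01 adjusted over the 2 ratios computed). The difference was -0.59 at 80 d and -0.98 at 9 d, each with an exact p = 0.1, the smallest that 3 against 3 allows.

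That result held in direction without any 1 library (-0.93 to -0.62). Its adjusted p was 0.05, no longer under the threshold, without YK_9d replicate 2 or replicate 3. The difference was -0.69 without both, and -1.12 without YK_80d replicates 2 and 3, each leaving 1 library in that group. SLA-DMB stood at 0.836, 0.961 and 1.02 times SLA-DMA in GS_80d and 1.08, 0.966 and 1.07 times in YK_80d. It stood at 1.13, 1.01 and 0.758 times in GS_9d and 0.783, 0.597 and 0.498 times in YK_9d. The groups overlapped at both ages, and the mean difference of 0.24 did not pass (exact permutation p = 0.255, the same adjusted). That mean covers opposite signs, -0.15 at 80 d and 0.63 at 9 d.

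A further ratio, SLA-DQB1 against SLA-DRA, was taken after the values had been seen and was not tested. SLA-DQB1 stood at 0.284, 0.208 and 0.388 times SLA-DRA in GS_80d, against 0.590, 0.619 and 0.674 times in YK_80d. It stood at 0.381, 0.352 and 0.658 times in GS_9d, against 0.603, 0.692 and 0.460 times in YK_9d. The groups did not overlap at 80 d and overlapped at 9 d. The ratios are of whole-gene counts, not corrected for length, so they compare libraries and not the 2 genes.

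**Figure D3:**
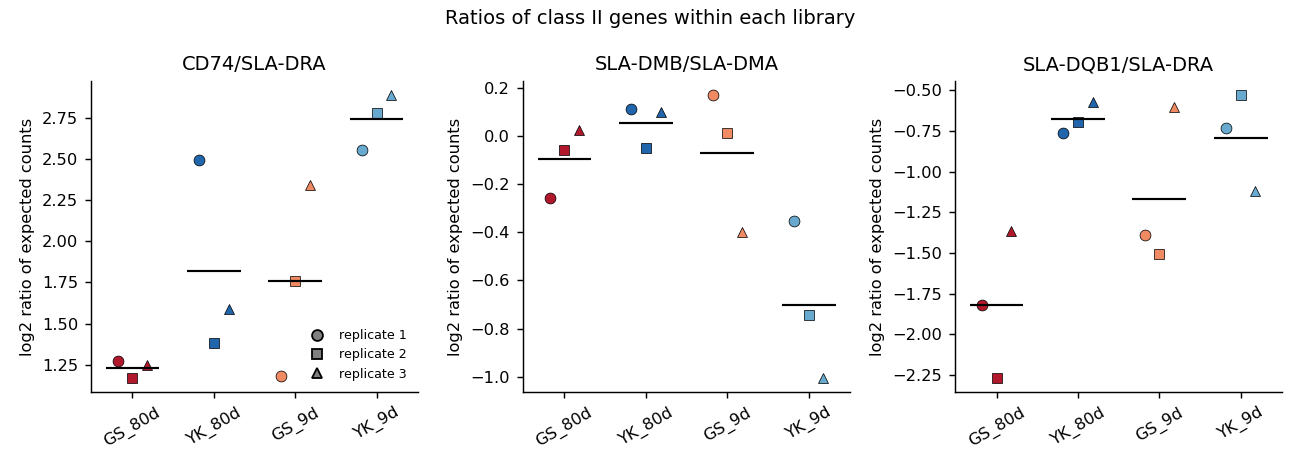
Log2 ratio of expected counts within each library for CD74 over SLA-DRA, SLA-DMB over SLA-DMA and SLA-DQB1 over SLA-DRA, with a line at the mean of each group and a marker shape for each replicate number. For CD74 over SLA-DRA every GS library lies below every YK library of the same age.

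Many calls of the genes below depended on the same libraries. Of the 15 companion and marker genes named as changed at 80 d, 5 kept their calls without the 3 libraries with muscle transcripts. Of 13 called between the ages in YK, KRT71 included, 3 kept theirs in that fit. Fits without YK_80d or YK_9d replicates 2 and 3 keep 1 library of that group, too few to judge a call. Of 6 called between the ages in GS, 1 kept its call without the muscle libraries. Averaged over both ages, 6 of 10 kept theirs without the muscle libraries.

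The other genes of class II processing and loading did not share one direction. At 80 d, 2 of 17 were lower in GS and none higher, with a median of -0.27. They were IFI30, the thiol reductase that opens disulfide bonds of antigens (-0.93 ± 0.23, edgeR adjusted p = 0.0366), and CTSF, a lysosomal protease of macrophages (-1.03 ± 0.26, 0.0366). IFI30 kept the call only without YK_80d replicate 1 and CTSF only without YK_80d replicate 2 (up to 0.147 and 0.126). CTSS, the protease that trims CD74, stood at 51.6, 76.8 and 182 CPM in GS_80d and 122, 238 and 225 CPM in YK_80d (-0.92 ± 0.48, edgeR adjusted p = 0.275). LGMN, an asparagine endopeptidase, averaged 215 CPM in GS_80d and 129 CPM in YK_80d and did not pass (0.73 ± 0.28, edgeR adjusted p = 0.136).

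At 9 d, 1 of the 17 passed. CTSC, which activates granule proteases, was higher in GS (1.13 ± 0.23, edgeR adjusted p = 0.0449), with the call kept only without YK_9d replicate 3 (up to 0.168). Averaged over both ages CTSC was higher (0.89 ± 0.17, adjusted p = 0.00669, kept in 12 of 12 fits without 1 library). On that average CTSF was lower (-0.76 ± 0.18, 0.0223, lost without GS_80d replicate 1), and so was IFI30 (-0.59 ± 0.16, 0.0424, kept only without YK_80d replicate 1). Between the ages, CTSF fell in GS by a log2 fold change of 1.14 ± 0.26 (adjusted p = 0.0398), a call lost without any 1 library (up to 0.139), and none of the 17 passed in YK by edgeR.

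SLA-DOA, a chain of the DO pair that restrains DM, stood at 13.6, 18.4 and 15.6 CPM in GS_80d and 9.43, 26.2 and 31.0 CPM in YK_80d. It stood at 16.4, 18.2 and 4.02 CPM in GS_9d and 4.70, 4.34 and 3.61 CPM in YK_9d, with replicate 3 of GS_9d again beside the YK_9d libraries. Its age difference in YK was 2.40 ± 0.53 (edgeR adjusted p = 0.0509), and its breed difference at 9 d was 1.61 ± 0.52 (0.165). SLA-DOB, the other chain of DO, ran from 0.122 to 5.0 CPM over the 12 libraries.

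Of 9 genes of class II transcription 1 passed at 80 d. KAT2B, a histone acetyltransferase that acetylates CIITA in human cells, was higher in GS at 288, 298 and 274 CPM, against 144, 123 and 116 CPM in YK_80d (log2 1.17 ± 0.22, edgeR adjusted p = 0.0102). The GS libraries stood at about the same level, apart from the YK libraries, and the call was kept whichever single library was left out (up to 0.0430). It was lost without the 3 libraries with muscle transcripts (log2 1.10, 0.0744). With YK_80d replicates 2 and 3 left out and 1 YK_80d library kept, the log2 value was 0.99. KAT2B was also higher averaged over both ages (0.96 ± 0.15, adjusted p = 0.00279). It rose between the ages in GS (0.94 ± 0.21, 0.0400), a call lost without any 1 library (up to 0.114). RFX5, the DNA-binding subunit of the factor that recruits CIITA, stood at 25.3, 35.1 and 23.9 CPM in GS_80d and 23.7, 36.9 and 30.5 CPM in YK_80d. It did not pass between the ages in YK (1.04 ± 0.33, edgeR adjusted p = 0.163).

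B2M, the light chain of class I molecules, was not matched to an ID. Most other genes of class I presentation had the signs of the class II members. At 80 d, 4 of 12 were lower in GS and none higher, with a median of -1.002. PSMB8, PSMB9 and PSMB10 encode the catalytic subunits of the immunoproteasome. PSMB8 stood at 36.8, 49.6 and 38.1 CPM in GS_80d, against 122, 118 and 193 CPM in YK_80d (log2 -1.80 ± 0.35, edgeR adjusted p = 0.0127), all GS libraries lying below all YK libraries. PSMB9 differed by -1.91 ± 0.43 (adjusted p = 0.0258) and PSMB10 by -1.30 ± 0.30 (0.0275). PSMB8 lost its call without GS_80d replicate 1 or 3 (up to 0.0670), and PSMB9 and PSMB10 kept theirs only without YK_80d replicate 1 or 2 (up to 0.112 and 0.119). The peptide transporter gene TAP1 differed by -1.34 ± 0.45 (adjusted p = 0.0960). In YK, 4 of 12 rose between the ages, with a median of 1.63, among them PSMB8 (2.26 ± 0.35, adjusted p = 0.0193), PSMB9 (2.32 ± 0.44, 0.0338) and PSME2, a proteasome activator subunit (1.66 ± 0.32, 0.0345). PSMB8 lost that call without YK_9d replicate 2 or 3, and the other 2 kept theirs only without YK_80d replicate 1 (up to 0.107). At 9 d all 12 values were positive for GS minus YK, with a median of 0.86, and none passed. NLRC5, the class I counterpart of CIITA, differed there by 1.32 ± 0.46 (edgeR adjusted p = 0.208), with GS_9d replicate 1 at 90.6 CPM against 27.8 and 23.0 CPM in the other GS_9d libraries, and by 0.42 without that library. It differed between the ages in YK by 1.95 ± 0.47 (0.0699).

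Of 16 interferon gamma pathway genes, 1 passed at 80 d. GBP2, an interferon-induced GTPase, was lower in GS (-1.82 ± 0.43, edgeR adjusted p = 0.0308), with the call kept only without YK_80d replicate 1 (up to 0.130). IFNG, interferon gamma itself, stood at 0.145, 0.491 and 0.0672 CPM in GS_80d, against 1.77, 3.21 and 6.06 CPM in YK_80d (-3.96 ± 1.29, edgeR adjusted p = 0.0945). IFNG rested on few fragments in GS_80d, where 3 across the group correspond to 0.0628 CPM. It was at 0 in all YK_9d libraries and so was at least 53.7-fold higher in YK_80d, taking 3 fragments across the YK_9d group as the floor, a limit for counting error alone (edgeR adjusted p = 0.0345). IRF1, a transcription factor induced by interferon gamma, rose in YK (1.66 ± 0.33, adjusted p = 0.0374), and at 80 d it differed by -1.08 ± 0.33 between the breeds (0.0718). Both age calls in YK were kept only without YK_80d replicate 1 (up to 0.0973 for IFNG and 0.102 for IRF1). IFNGR2, a receptor subunit, was higher in GS averaged over both ages (0.62 ± 0.16, adjusted p = 0.0332), a call kept in 5 of 12 fits without 1 library: those without any YK_80d library, GS_9d replicate 1 or YK_9d replicate 3. None of the 16 passed at 9 d or between the ages in GS.

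**Figure D4:**
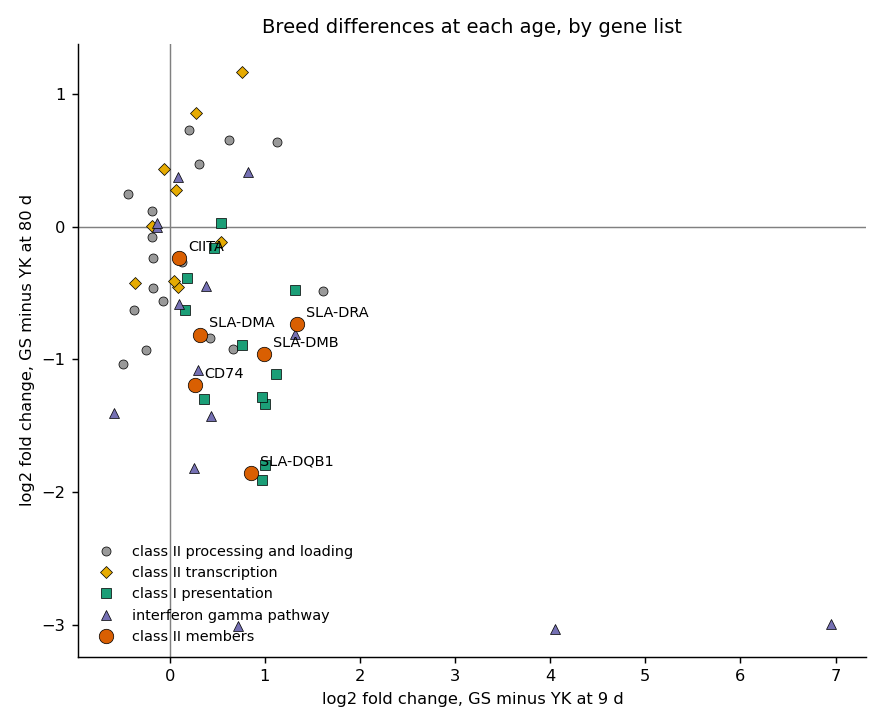
Breed difference at 80 d (vertical axis) against that at 9 d (horizontal axis), both as log2 fold change GS minus YK, for the class II members and 4 companion lists, leaving out genes at 0 in every library of a group. The 6 members lie to the right of 0 and below 0, and 11 of the 12 class I genes share that quadrant.

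Of 10 tested genes of costimulation and T cell contact, CD86, the ligand of CD28 on antigen-presenting cells, rose in YK (2.46 ± 0.48, edgeR adjusted p = 0.0345), a call kept only without YK_80d replicate 1 (up to 0.108). CD80, the other ligand of CD28, rose in GS (1.48 ± 0.31, adjusted p = 0.0326), a call lost without any 1 library (up to 0.126). CD80 stood at 19.6, 21.9 and 28.5 CPM in GS_80d and 10.4, 5.63 and 9.15 CPM in GS_9d. None of the 10 passed between the breeds at either age. CD4, the coreceptor for class II, stood at 0.472, 1.12 and 2.27 CPM in GS_80d and 2.11, 4.29 and 7.20 CPM in YK_80d.

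Markers of other cells were measured beside the members. The 12 matched T and NK cell genes had 13 tested IDs, all with negative values at 80 d (3 lower in GS, median -2.18). All 13 had positive values in YK between the ages (5 higher, median 3.94). Among them GNLY, a cytotoxic granule protein, stood at 4.14, 13.7 and 7.64 CPM in GS_80d and 47.5, 165 and 146 CPM in YK_80d (-3.82 ± 0.60, edgeR adjusted p = 0.00614). The call was kept whichever single library was left out. With YK_80d replicates 2 and 3 left out and 1 YK_80d library kept, the log2 value was -2.49. The chemokine CCL5 (-3.37 ± 0.76, 0.0293) and the granule gene NKG7 (-2.33 ± 0.60, 0.0442) were the other 2. NKG7 kept its call only without YK_80d replicate 1, and CCL5 only without YK_80d replicate 1 or 2. In the fit that kept 1 YK_80d library, replicate 1, CCL5 differed by -0.41 and NKG7 by -0.002. The breed by age interaction of GNLY was -5.45 ± 0.81 (adjusted p = 0.0455), kept only without YK_80d replicate 1 or GS_9d replicate 3. CD3E, a T cell receptor subunit, rose in YK (4.46 ± 0.72, adjusted p = 0.0244), a call kept only without YK_80d replicate 1 (up to 0.0802). GNLY and CD8A, a coreceptor subunit of cytotoxic T cells, rose there too (3.31 ± 0.59, adjusted p = 0.0270, and 5.10 ± 0.99, 0.0376), with the same dependence on which library was left out.

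Macrophage markers summed to 233, 200 and 418 CPM in GS_80d and 230, 561 and 577 CPM in YK_80d, then to 834, 896 and 831 CPM in GS_9d and 991, 809 and 730 CPM in YK_9d. YK_80d was split as for most class II genes, with replicates 2 and 3 above replicate 1 and above all GS_80d libraries. Most of these markers had lower values at the later age. Of 12 genes, 12 had negative values in GS (5 fell) and 10 in YK (3 fell), and at 80 d 9 had negative values between the breeds (2 lower in GS). CD163, a scavenger receptor of resident macrophages, stood at 16.9, 16.6 and 39.7 CPM in GS_80d and 24.5, 43.6 and 24.4 CPM in YK_80d, against 70.4, 102 and 91.8 CPM in GS_9d and 132, 115 and 148 CPM in YK_9d. It fell by a log2 fold change of 1.85 ± 0.35 in GS (edgeR adjusted p = 0.0201) and 2.10 ± 0.36 in YK (0.0244). The GS call for CD163 was kept only without GS_80d replicate 3 and the YK call only without YK_80d replicate 1 or 2 (up to 0.0961 and 0.0742). MARCO, another scavenger receptor, was at 0 in all GS_80d libraries and at least 101-fold lower there than in YK_80d, with the same floor across the GS_80d group (edgeR adjusted p = 0.000962). AIF1, a macrophage calcium-binding protein, was also lower in GS at 80 d (-1.95 ± 0.41, adjusted p = 0.0194, lost without GS_80d replicate 1 or 2 or YK_80d replicate 3). MARCO and the complement gene C1QA fell in GS with CD163, and the mannose receptor MRC1 and VSIG4, a complement receptor, fell in YK (adjusted p = 0.00285, 0.0381, 0.0345 and 0.0345). VSIG4 and the complement gene C1QC also fell in GS (adjusted p = 0.0403 and 0.0399), and MRC1 had a negative value there (-1.34 ± 0.46, 0.136). MARCO kept its calls whichever library was left out, and C1QA lost its call without any 1 library. MRC1 and VSIG4 kept their calls in YK only without YK_80d replicate 2. AIF1 had the opposite sign in YK, at 15.8, 23.3 and 37.8 CPM in YK_80d against 11.2, 12.8 and 7.17 CPM in YK_9d, with no overlap (1.30 ± 0.41, edgeR adjusted p = 0.156), and MARCO differed there by 0.56 ± 0.60. CSF1R, the receptor that macrophages need to survive, did not pass in either breed. It differed by -1.15 ± 0.35 in GS and -0.99 ± 0.35 in YK (edgeR adjusted p = 0.0965 and 0.212). In each breed all its 80 d libraries lay below all 9 d libraries.

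Dendritic cell genes summed to 11.4 to 19.4 CPM in GS_80d and 20.5 to 36.2 CPM in YK_80d, and to 18.1 to 25.2 CPM in GS_9d and 13.3 to 22.3 CPM in YK_9d. None of the 8 passed in any comparison. Between the breeds, 7 had negative values at 80 d (median -1.049) and 5 had positive values at 9 d (median 1.268). In YK 7 had positive values between the ages (median 1.545). FLT3, a growth factor receptor of dendritic cells, was under 1 CPM in every library. B and plasma cell genes summed to 40.2 to 66.9 CPM in GS_80d and 30.5 to 92.5 CPM in YK_80d, with none of 10 past the threshold in any comparison. Within YK_80d the list summed to 92.5, 44.8 and 30.5 CPM in replicates 1, 2 and 3, of which CD79A, a subunit of the B cell receptor, made up 80.4, 25.3 and 7.04 CPM. MS4A1, which marks B cells, reached at most 2.03 CPM, and CD79A ran from 1.05 to 80.4 CPM. Adipocyte genes had 2 of 8 members higher in GS at 80 d, CIDEC and PLIN1. CIDEC, a fat storage protein of the droplet surface, was higher (1.89 ± 0.38, adjusted p = 0.0151, lost without GS_80d or YK_80d replicate 3), and so was PLIN1, a lipid droplet coat protein (1.31 ± 0.32, edgeR adjusted p = 0.0346, lost without any 1 library, up to 0.105), while ADIPOQ, adiponectin, differed by 0.90 ± 0.41 (0.207). CIDEC was also higher in GS at 9 d (1.81 ± 0.38, adjusted p = 0.0449, kept only without YK_9d replicate 3). Averaged over both ages CIDEC (1.85 ± 0.27, 0.00187) and PLIN1 (1.10 ± 0.23, 0.0116) were higher, and both calls were kept whichever single library was left out. KIT, a receptor of mast cells and pigment cells, was lower in GS at both ages, with 5.42 to 10 CPM in GS_80d against 43.6 to 102 CPM in YK_80d (edgeR adjusted p = 0.000962) and 6.67 to 9.47 CPM in GS_9d against 62.0 to 77.5 CPM in YK_9d (0.00748). Of the 5 tested neutrophil and mast cell genes, KIT among them, 4 had positive values at 80 d and 3 at 9 d. MS4A2 and HDC of that list differed by 1.278 and 0.146 at 80 d and by 1.075 and 1.771 at 9 d. Neither passed at either age. The part of any of these cell types in the class II results was not tested.

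**Figure D5:**
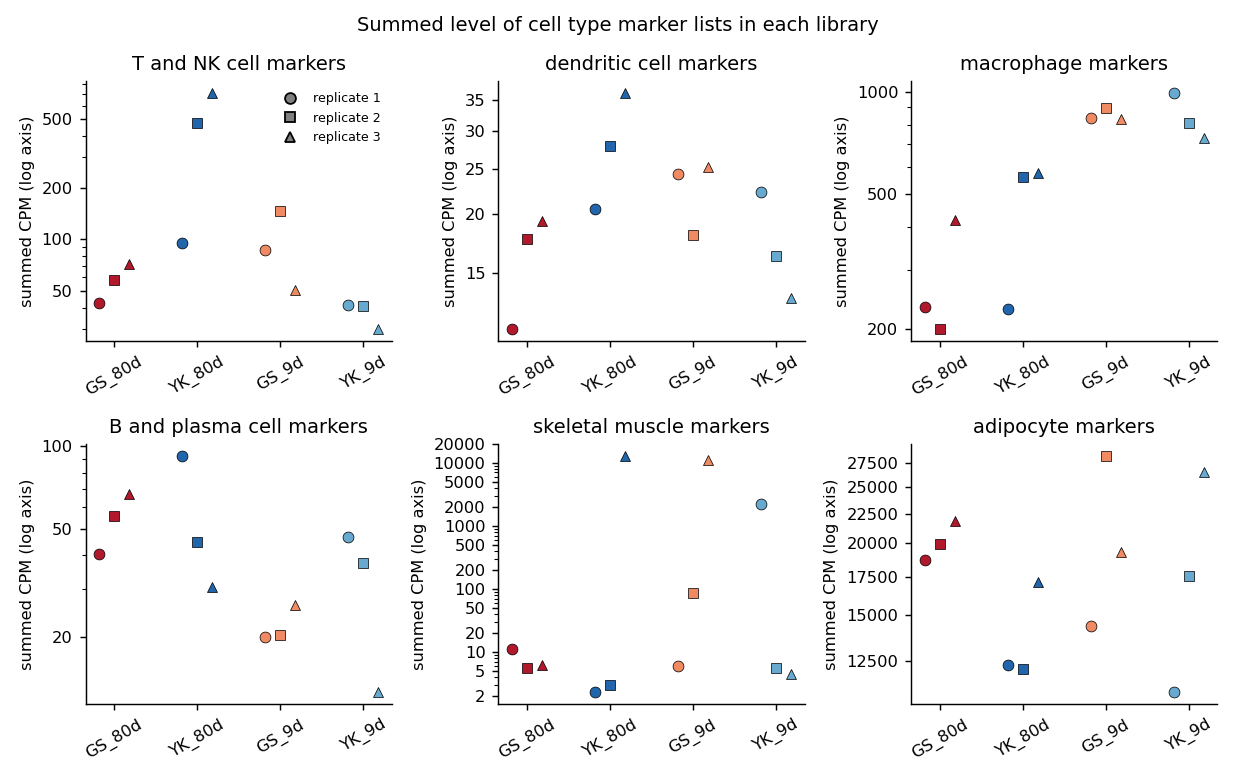
Summed CPM (log axes) of 6 cell type marker lists in each library, with a marker shape for each replicate number. T and NK cell markers sum to 477 and 712 CPM in YK_80d replicates 2 and 3, which are also the highest libraries for 5 of the 6 class II genes, and macrophage markers stand higher in the 9 d groups.

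Of the tested genes with a symbol outside the list, the 5 whose log2 CPM most resembled the mean of the 6 members across the 12 libraries were GPR18, KLRK1, PSMB9, ITGAL and RAC2. GPR18 is a receptor of lymphocytes, KLRK1 an activating receptor of NK and CD8 T cells, ITGAL an integrin subunit of leukocytes and RAC2 a GTPase of blood cells. Their Pearson correlations were 0.975, 0.968, 0.964, 0.963 and 0.961, with Spearman coefficients of 0.923 to 0.958. Without the 2 libraries farthest from the median, YK_80d replicates 2 and 3, the Pearson values were 0.860 to 0.923. They were picked as the highest of all tested genes with a symbol, so they are given with no test. KLRK1 stood at 3.72, 4.85 and 4.62 CPM in GS_80d and at 6.24, 34.3 and 44.2 CPM in YK_80d.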

How the data were processed

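The authors deposited a table of expected counts per gene for 12 libraries of subcutaneous back fat, with no scaling between libraries. Per the labels' protocols, TRIzol-extracted RNA went into a stranded KAPA library kit. The only build in the submitters' processing notes is mm10, of the mouse, although every one of the 24358 IDs is a pig Ensembl ID, so no coordinates are printed. Aligner, counter and annotation were not given in the sources used here. Small values cluster near multiples of 3.72 (there are 1233 values of 3, 3354 of 4 and 795 of 5), so 1 fragment adds about 3.72 units, and the deposited counts overstate fragments by that factor. All values were whole, so rounding changed none.

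The members and gene lists were chosen with earlier results of these data known. Symbols came from the supplied table of IDs, in which SLA-DRA and SLA-DOB stand under their human symbols HLA-DRA and HLA-DOB. The 15425 genes passing edgeR's filterByExpr were scaled by TMM (factors 0.888 to 1.1) and fitted in edgeR 4.0.16 (R 4.3.3, limma 3.58.1) with a robust quasi-likelihood model of 4 groups over 12 libraries, which left 8 residual degrees of freedom. P-values are two-sided and Benjamini-Hochberg adjusted over all genes tested, with a threshold of 0.05. The SE of a log2 fold change follows from it and the square root of F. Since no label says that samples are separate animals, p-values cover the spread between these samples and no more, and that spread may be technical. No 2 replicates agreed within sampling noise (lowest chi-square per degree of freedom 35.9). The fit was first tested on simulated data of known fold changes.

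Ratios of 2 genes were taken per library as log2 of the expected counts plus 0.5 units, and breeds were compared by an exact permutation test within each age. Of 4 ratios planned, 2 need SLA-DRB1 or SLA-DQA1 and were not computed. Genes are named by a rule: the members, up to 3 genes with the smallest adjusted p among those past the threshold in each list and comparison, and a set list of 20 whatever their result, some of which are not reported here. Alternatives were another normalization, DESeq2 1.42.0, no filter, values divided by the step, only the libraries compared, the replicate number as a block, and fits without 1, 2 or 3 libraries.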

Additional observations from a re-analysis of the deposited data

Results flagged for a closer look

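SLA-DQB1 was picked out because every GS library lay below every YK library at 80 d and above every YK library at 9 d. Its breed by age interaction was -2.71 ± 0.57 on the log2 scale, with an adjusted p of 0.129 in edgeR and 0.000569 in DESeq2. CD74 was picked out because every 80 d library lay below every 9 d library in GS and above every 9 d library in YK. Its interaction was -1.46 ± 0.35, with an adjusted p of 0.180 in edgeR and 0.00180 in DESeq2. In edgeR, the reported test, neither interaction passed the threshold. Both genes were picked on the same values that the interaction measures, so these p-values are a description and not separate support.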

How the results depend on the processing

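The limits are few libraries and groups, YK_80d and GS_9d above all, whose libraries differ among themselves; depth was not limiting, since every member had over 200 fragments per library. Members called are given for breed at 80 d (2 called), breed at 9 d (0), age in GS (0), age in YK (2), the interaction (0) and breed averaged over ages (0). Counts that are not given stayed within 1.5 times, leaving aside fits that keep 1 library of a group. All causes below were not tested. DESeq2 called 1 member for breed at 9 d, 5 for age in YK, 4 for the interaction and 1 for breed averaged. It also called more of all genes than edgeR in every comparison, as given below. A fit of only the 6 libraries compared called 1 for breed at 80 d and 0 for age in YK; such a fit has fewer residual degrees of freedom. The replicate number does not pair the samples (same-number correlations of deviations -0.247 to 0.173), and with the replicate block 0 were called for age in YK. Without the 3 libraries with muscle transcripts, 0 were called for breed at 80 d and 0 for age in YK. Fits without YK_80d or YK_9d replicates 2 and 3 keep 1 library of that group, so their counts are not given. Without 1 replicate the ranges were 0 to 3 for breed at 80 d, 0 to 4 for age in YK, and 0 to 2 for the interaction.

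All genes called were 944, 157, 409, 186, 10 and 1435 in the same order of comparisons, and DESeq2 called 2202, 900, 1465, 853, 367 and 2579. A fit of only the 6 libraries called 29 for breed at 9 d, 1055 for age in GS and 46 for age in YK. The replicate block called 49 for breed at 9 d, 65 for age in YK and 2 for the interaction. Without YK_80d replicates 2 and 3 the counts were 242 for breed at 80 d, 74 for age in YK and 21 for the interaction. Without YK_9d replicates 2 and 3 they were 11 for breed at 9 d, 14 for age in YK, 4 for the interaction and 864 for breed averaged. Without the muscle libraries they were 290, 39, 150 and 51 for the first 4 comparisons and 611 for breed averaged. Without 1 replicate they were 255 to 916, 5 to 284, 78 to 122, 27 to 245, 5 to 90 and 786 to 1773.

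Every sign that turned belonged to a difference that had not passed. For breed averaged, SLA-DMB was -0.001 with RLE normalization and with DESeq2, -0.002 with the block, -0.13 without YK_9d replicates 2 and 3 and -0.141 to 0.18 without 1 replicate. CIITA was 0.06 and SLA-DMA 0.017 without the muscle libraries, and SLA-DQB1 was 0.145 and SLA-DMA 0.236 without YK_80d replicates 2 and 3. CIITA ran from -0.204 to 0.019 without 1 replicate. For breed at 80 d, SLA-DRA was 0.445 and SLA-DMA 0.149 without YK_80d replicates 2 and 3. Without 1 replicate, age in GS ran from -0.434 to 0.152 for SLA-DRA and from -0.332 to 0.071 for SLA-DMA, and breed at 9 d from -0.173 to 0.268 for CIITA. The log2 ratio of CD74 to SLA-DRA was -0.588 at 80 d alone and -0.978 at 9 d alone, where 3 against 3 cannot reach the threshold. It was -0.69 without YK_9d replicates 2 and 3, which leaves 1 YK_9d library. Without 1 replicate it ran from -0.929 to -0.615, and it no longer passed without YK_9d replicate 2 or 3 (adjusted p = 0.05 each). The ratio of SLA-DMB to SLA-DMA was -0.151 at 80 d alone. An unfiltered fit, a pseudocount of 5 for the ratios, and RLE normalization otherwise turned no sign and lost no call of a member, and values divided by the step called SLA-DMB as well for age in YK (adjusted p = 0.0473).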
